A study of Mus musculus with 6 samples.

Results

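The genes described here make, recycle and use glutathione, the most abundant small thiol of animal cells. They are Gclc, Gclm, Gss, Gsr, Gpx1, Gpx4, Gsta4, Gstm1, Gstp1 and Gsto1, 10 genes chosen by name with the genotype difference on these arrays already known. The mRNA levels below are therefore a description of the members and no independent test of them. Of the 46632 probes on the array, 14 were annotated to 9 of the 10 genes, out of 17711 genes named on it. No probe carried the name Gpx4 in the annotation used, so Gpx4 was not analysed here. Of the 14 probes, 11 were measured above background, and they represented 7 genes.

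The samples were erythroid progenitors from the livers of mouse embryos at E12.5, expanded for 3 days and then depleted of cells with Ter119 on their surface, which marks maturing red cells. In 3 samples the cells were SclRER/RER, with both copies of the Scl gene (Tal1) encoding a form of the SCL transcription factor that cannot bind DNA normally. The other 3 samples were wild type (WT), and all 6 were labelled as strain C57Bl/6. Total RNA was labelled with biotin and each sample was hybridised to 1 single-colour Illumina bead array. Whether the replicates of a genotype were separate embryos or cultures is not in the labels, so errors and p-values cover only array to array spread here, some of it possibly technical. Fewer cells of a type and less RNA per cell cannot be told apart in bulk RNA.

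Glutathione is built from glutamate, cysteine and glycine. Glutamate-cysteine ligase, of the catalytic subunit Gclc and the modifier subunit Gclm, makes the first bond and limits the rate, and glutathione synthetase (Gss) adds glycine. Glutathione peroxidases (Gpx1 in the cytosol, Gpx4 on membrane lipids) spend glutathione to reduce peroxides, glutathione reductase (Gsr) restores it with NADPH, and the transferases of the alpha (Gsta), mu (Gstm), pi (Gstp) and omega (Gsto) classes join it to reactive molecules or use it in reductions. Red cells carry oxygen on haem iron and face a steady load of peroxide, and glutathione with its peroxidase and reductase is among their main defences.

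Promoters are shown for the members whose window held an antioxidant core and for Gstp3 and Slc7a11, genes outside the members that fell in SclRER/RER and whose windows also held one. These windows were chosen for their matches, and those of Nqo1, which also fell, and of Gstt3 held none of the motifs searched. Gsta4, Gclc and Gsr among the members had no listed promoter and were not searched. The same held for Slc1a5, a gene outside the members that also fell. The sequences are the 250 bases before the start of Gclm, Gstp1, the pi class gene Gstp3 and the cystine carrier gene Slc7a11, from RefSeq on build GRCm38.p6, written 5' to 3' on the strand of the gene. Capitals mark every match, on either strand, to the core of the antioxidant response element (TGACNNNGC or TGAGNNNGC), to 2 E-boxes of the kind bound by SCL with its partners (CAGATG or CAGCTG) or to 2 GATA motifs (AGATAA or TGATAA). Gclm lies at chr3:122245307-122245556 (plus strand), Gstp1 at chr19:4037913-4038162 (minus), Gstp3 at chr19:4059448-4059697 (minus) and Slc7a11 at chr3:50443614-50443863 (minus).
Gclm: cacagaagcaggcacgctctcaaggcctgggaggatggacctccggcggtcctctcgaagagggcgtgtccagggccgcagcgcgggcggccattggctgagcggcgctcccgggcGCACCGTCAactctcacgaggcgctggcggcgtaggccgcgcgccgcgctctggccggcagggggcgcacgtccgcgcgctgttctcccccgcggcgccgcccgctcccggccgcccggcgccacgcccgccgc
Gstp1: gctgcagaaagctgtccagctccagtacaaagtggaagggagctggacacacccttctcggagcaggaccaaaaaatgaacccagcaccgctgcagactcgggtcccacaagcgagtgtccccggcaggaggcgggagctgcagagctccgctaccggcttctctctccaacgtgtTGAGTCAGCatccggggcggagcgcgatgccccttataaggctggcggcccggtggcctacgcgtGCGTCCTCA
Gstp3: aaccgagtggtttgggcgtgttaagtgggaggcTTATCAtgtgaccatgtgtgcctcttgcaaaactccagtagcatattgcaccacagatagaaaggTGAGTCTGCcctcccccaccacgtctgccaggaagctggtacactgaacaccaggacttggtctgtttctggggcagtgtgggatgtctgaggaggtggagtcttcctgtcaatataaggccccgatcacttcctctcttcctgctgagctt
Slc7a11: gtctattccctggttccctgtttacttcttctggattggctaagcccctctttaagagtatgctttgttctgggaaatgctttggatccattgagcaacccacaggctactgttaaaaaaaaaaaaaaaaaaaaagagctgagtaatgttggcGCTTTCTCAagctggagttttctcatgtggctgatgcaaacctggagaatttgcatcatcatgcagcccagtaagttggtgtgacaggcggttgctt

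The Gclm window held 1 antioxidant core, TGACNNNGC read on the opposite strand, from base -134 to -126 counted from the start. The Gstp1 window held TGAGTCAGC from -74 to -66 and a further match, on the opposite strand, from -9 to -1. At Gstp3 the core read TGAGTCTGC, from -152 to -144, and a GATA motif lay on the opposite strand from -217 to -212. The window of Slc7a11 had 1 core on the opposite strand, from -97 to -89. Over the same 250 bases of all 32851 listed promoters, 10.2% held TGACNNNGC, 14.4% TGAGNNNGC, 14.4% CAGATG, 13% CAGCTG, 9.99% AGATAA and 7.94% TGATAA. Of the 10 members, 7 had a promoter in the table, all but Gclc, Gsr and Gsta4, with 11 windows in all. Among these windows 2 held an antioxidant core, 3 an E-box and 2 a GATA motif. Each of these counts takes either of 2 motifs. The shares over all promoters are for 1 motif each, so the counts cannot be set against them. The E-boxes and GATA motifs of members were all in windows of Gpx4, some of which overlap and share the same matches. These matches are descriptions of the letters and show no binding.

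Mean signal per array lay between 385 and 546 intensity units, and between 11084 and 12678 probes per array were detected, with a detection p below 0.01. Probes detected on at least 3 of the 6 arrays, 11578 in number, were kept and tested. Levels below are normalized log2 intensities, in which 1 unit is a doubling, and differences are SclRER/RER minus WT. An intensity depends on the probe as well as on the mRNA, so levels of different probes are not set against each other.

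Gsta4 was the member that stood apart. It encodes the alpha class transferase known for conjugating 4-hydroxynonenal, a toxic product of lipid peroxidation. Its probe, ILMN_2773022, read 8.14, 8.09 and 8.03 on the SclRER/RER arrays, against 10.01, 9.97 and 10.05 on the WT arrays. The groups did not overlap, and the gap between them was far wider than the range within either genotype, which was 0.11 in SclRER/RER and 0.08 in WT. Gsta4 averaged 8.09 ± 0.05 in SclRER/RER and 10.01 ± 0.04 in WT (SD, n = 3 each), a difference of -1.92 (SE 0.10, 95% confidence interval -2.16 to -1.68), or a 3.79-fold lower level. It was detected on all 6 arrays, so this fold is a measured value and no bound, though its size depended on the processing.

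The deposited signals also showed a gap before any correction or scaling, though a smaller one. They were 438.3, 286.4 and 287.0 intensity units for Gsta4 in SclRER/RER, against 1112.0, 1139.8 and 971.8 in WT. The SclRER/RER mean was 0.31 of the WT mean. The brightest SclRER/RER reading came from the array with the highest mean signal of the 6, array 1, and it was still below every WT reading. In the authors' deposited normalized values Gsta4 read 328.7, 319.6 and 308.7 in SclRER/RER and 1038.2, 1009.8 and 1063.0 in WT. Among the 11578 kept probes the Gsta4 difference was the 45th largest fall, and it was 16th when probes were ordered by the p of the limma fit.

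**Figure D1:**
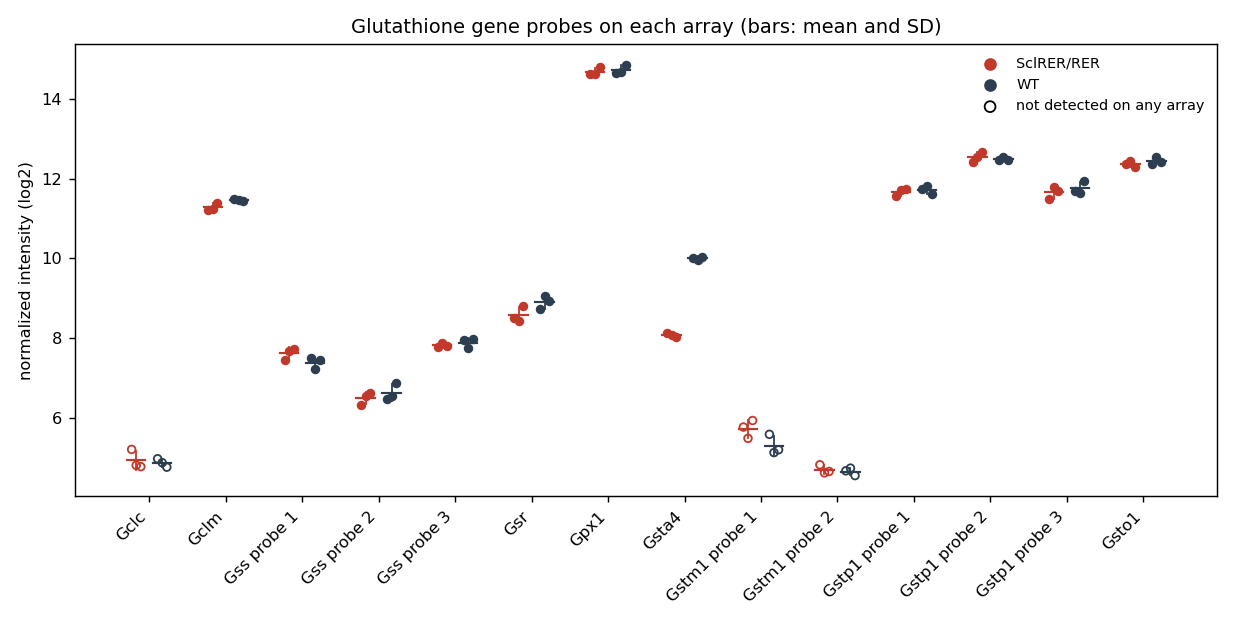
Normalized intensity (log2, vertical axis) of each of the 14 glutathione gene probes on the 3 SclRER/RER arrays (red) and the 3 WT arrays (dark blue), with the mean and SD of each genotype. Gsta4, at 8.03 to 8.14 in SclRER/RER and 9.97 to 10.05 in WT, is the probe with a wide gap, and open points are the 3 probes detected on no array.

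Of the 11 kept member probes, 1 passed an adjusted p of 0.05 (limma, Benjamini-Hochberg over all kept probes), the Gsta4 probe, and it was lower. Over all kept probes 6.58% passed, 3.26% lower and 3.33% higher in SclRER/RER. The adjusted p of Gsta4 was 2.63e-05 and those of the other 10 probes lay between 0.249 and 0.889, given as a description since the members were chosen on this contrast. The median difference of the 11 probes was -0.07, against 0.00 for all kept probes. Groups did not overlap for 2 of the 11 probes, Gsta4 and Gclm, and for 24.5% of all kept probes. Differences were below 0 for 9 of the 11 probes, but for 4 of 11 when arrays were scaled to a common median in place of quantile normalization, which moved the median of all kept probes to 0.11.

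**Figure D2:**
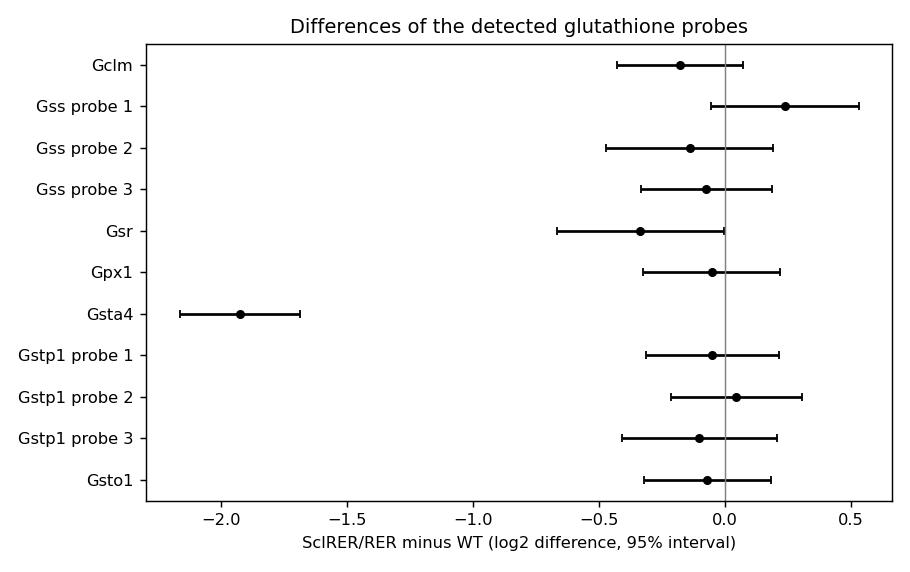
Difference between SclRER/RER and WT (log2, horizontal axis) for the 11 kept member probes, with 95% confidence intervals. The Gsta4 interval runs from -2.16 to -1.68, and the other points lie between -0.34 and 0.24.

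Among the genes of glutathione synthesis, Gclm and Gss could be measured and Gclc could not. Gclm, the modifier subunit, read 11.22, 11.25 and 11.40 in SclRER/RER, against 11.49, 11.47 and 11.44 in WT. All 3 SclRER/RER values were below all 3 WT values, by a small margin. The difference was -0.18 (SE 0.11, 95% interval -0.43 to 0.07), and -0.03 with median scaling. Its groups' means were 11.29 ± 0.10 in SclRER/RER and 11.46 ± 0.03 in WT (SD, n = 3 each).

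The probe of the catalytic subunit, Gclc, was at background. Its signals were 96.6, 70.7 and 70.2 in SclRER/RER and 86.2, 86.2 and 70.7 in WT, with detection p between 0.083 and 0.641 over the 6 arrays. No difference in Gclc could be measured, and its level is only bounded by the detection limit of this probe.

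Glutathione synthetase, Gss, had 3 kept probes, and they did not point one way. The first, ILMN_1227649, averaged 7.63 ± 0.14 in SclRER/RER and 7.39 ± 0.14 in WT, a difference of 0.24 (SE 0.13). The second, ILMN_1253631, averaged 6.50 ± 0.16 in SclRER/RER and 6.64 ± 0.21 in WT, a difference of -0.14 (SE 0.15). The values of each of these probes overlapped between genotypes. The third, ILMN_2667909, averaged 7.82 ± 0.05 in SclRER/RER and 7.89 ± 0.12 in WT (SD, n = 3 each), with a difference of -0.07 (SE 0.11), which was 0.02 with median scaling. The second Gss probe was the dimmest kept member probe, with detection p between 0.00468 and 0.00811, just inside the limit of 0.01.

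Glutathione reductase, Gsr, had the next largest difference after Gsta4. It read 8.50, 8.42 and 8.80 in SclRER/RER, against 8.73, 9.07 and 8.93 in WT. The highest SclRER/RER array lay above the lowest WT array, so the groups overlapped. Gsr averaged 8.57 ± 0.20 in SclRER/RER and 8.91 ± 0.17 in WT (SD, n = 3 each), a difference of -0.34 (SE 0.15, 95% interval -0.67 to 0.00) that did not pass the limma test over all probes. Its sign was negative under all 16 alternatives run, with values from -0.45 to -0.22.

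Gpx1, the main glutathione peroxidase of red cells, was a very bright probe in both genotypes. It read 14.61, 14.61 and 14.79 in SclRER/RER, against 14.65, 14.66 and 14.86 in WT. The values interleaved, and array 3 was the highest in each genotype. The difference was -0.05 (SE 0.12, 95% interval -0.32 to 0.22), and 0.09 with median scaling.

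The remaining transferases among the members fell into genes well above background with small differences and a gene near it. Gsto1, the omega class enzyme that reduces dehydroascorbate and other substrates, read 12.36, 12.43 and 12.30 in SclRER/RER, against 12.37, 12.53 and 12.41 in WT. These ranges overlapped, and the difference was -0.07 (SE 0.11, 95% interval -0.32 to 0.18), turning to 0.10 with median scaling.

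Gstp1, the pi class enzyme, had 3 probes. The brightest, ILMN_1226037, read 12.41, 12.55 and 12.66 in SclRER/RER, against 12.47, 12.54 and 12.47 in WT, a difference of 0.05 (SE 0.11, 95% interval -0.21 to 0.31). The other two, ILMN_1223230 and ILMN_2677046, differed by -0.05 (SE 0.12) and -0.10 (SE 0.13), and with median scaling by 0.11 and 0.03. Values of the 2 genotypes overlapped on each Gstp1 probe, and SclRER/RER array 1 was the lowest of the SclRER/RER arrays on all 3. Gstp1 has the close copy Gstp2 beside it, for which no probe was named here, so transcripts of the copy may be read by the same probes.

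Gstm1, the mu class enzyme that is prominent in adult liver, had 2 probes and neither was detected on any array. ILMN_1228233 read 124.0, 99.7 and 116.6 intensity units in SclRER/RER and 111.5, 102.3 and 93.6 in WT, with detection p between 0.0175 and 0.148, above the limit of 0.01 on every array. ILMN_2626492 lay lower still, at 56.9 to 77.7 in SclRER/RER and 52.6 to 76.2 in WT. No fold is given for Gstm1, since both genotypes were at background.

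Spread within a genotype was of the usual size for these arrays. Over the 11 kept member probes the SD ran from 0.05 to 0.20 in SclRER/RER and from 0.03 to 0.21 in WT, where the median SD of all kept probes was 0.17 in SclRER/RER and 0.13 in WT. Gsta4 had the smallest SD of the 11 in SclRER/RER, and Gclm the smallest in WT. Apart from Gsta4, the 95% intervals of the member differences reached no lower than -0.67 and no higher than 0.53. These limits came from different probes, those of Gsr and of Gss (ILMN_1227649). Differences within a probe's own interval were not excluded with 3 arrays a genotype.

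The Gsta4 difference was as large with any array left out, from -1.95 to -1.90, and ranged from -1.95 to -1.70 over all 16 alternatives, past the threshold in each. The least negative values, both -1.70, came from the authors' normalized table and from signals used without background correction. A single probe measured Gsta4, so no other probe of the gene could be set beside it.

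**Figure D3:**
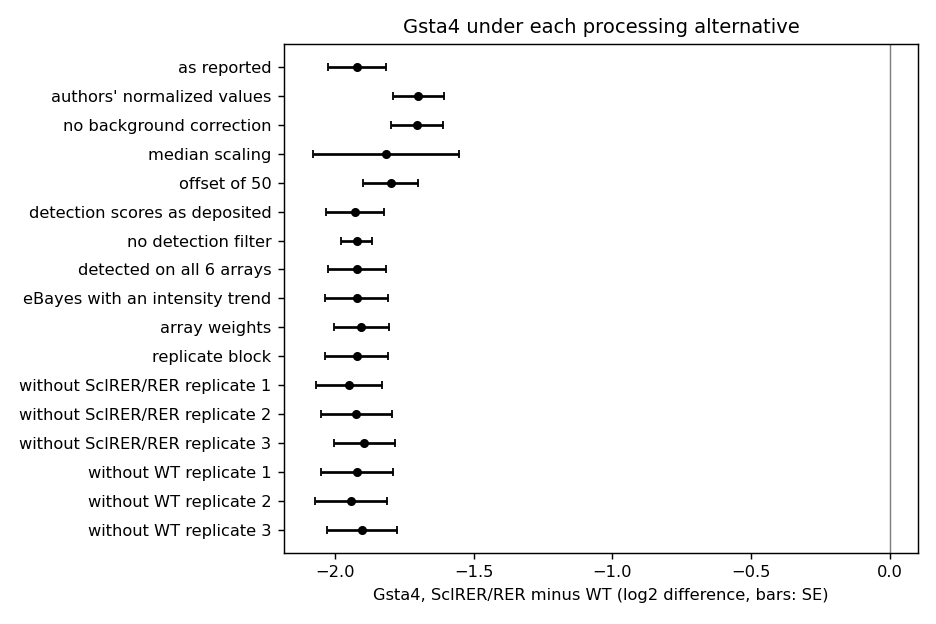
Gsta4 difference between SclRER/RER and WT (log2, horizontal axis) as reported and under 16 processing alternatives, with the SE of each fit. All values lie between -1.95 and -1.70.

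Genes next to the members on the chromosomes were then read, a comparison chosen after the Gsta4 value was seen. Gsta4 lies on chromosome 9, as does Gclc, and of the 5 detected genes on either side of it 1 changed. This was Lysmd2, which rose by 0.91 (SE 0.12, limma adjusted p = 0.00324). The nearest detected neighbours, Cilk1 at 0.13 (SE 0.11) and Cgas at 0.22 (SE 0.13), did not pass. The other alpha class genes did not follow Gsta4 in a measurable way. Gsta1 and Gsta2, also on chromosome 9, were detected on no array, and Gsta3, on chromosome 1, differed by 0.66 (SE 0.17, adjusted p = 0.0615) with values of 7.81 ± 0.17 in SclRER/RER and 7.15 ± 0.32 in WT (SD, n = 3 each). Gsta3 passed under 2 of the 16 alternatives.

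Beside Gstp1 on chromosome 19, Gstp3 fell. It read 6.81, 6.87 and 6.68 in SclRER/RER, against 8.43, 8.14 and 8.08 in WT. The groups did not overlap. Gstp3 averaged 6.79 ± 0.09 in SclRER/RER and 8.22 ± 0.19 in WT (SD, n = 3 each), a difference of -1.43 (SE 0.13, limma adjusted p = 0.000467) that passed under all 16 alternatives. Of the 10 detected genes around Gstp1, Gstp3 was the only one past the threshold. Around Gpx1 and around Gss 0 of 10 detected neighbours changed in the limma fit, around Gsr and Gsto1 1 of 10 each, and around Gclm 3 of 10, with 6.58% of all 6855 genes called.

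**Figure D4:**
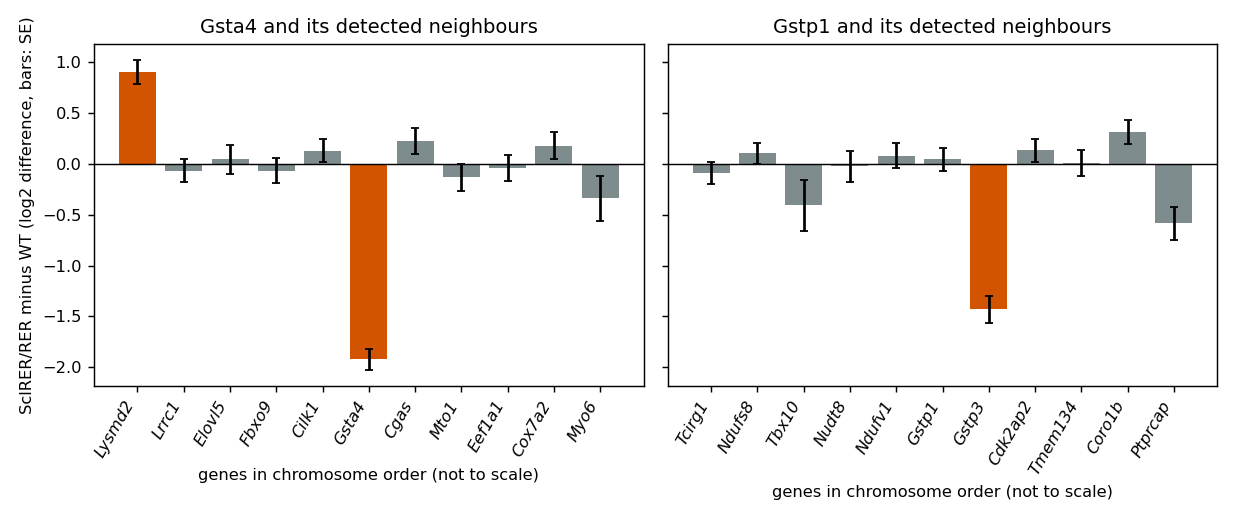
Difference between SclRER/RER and WT (log2, vertical axis, bars show SE) for Gsta4 (left) and Gstp1 (right) with the 5 nearest detected genes on either side, in chromosome order and not to scale. Orange bars passed an adjusted p of 0.05, and Gsta4 at -1.92 and Gstp3 at -1.43 stand among neighbours that mostly did not.

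A further 98 genes were read in 8 lists, 7 around glutathione metabolism and 1 of Nrf2 with known targets outside the pathway, all drawn up with earlier results of these arrays known. Of these, 91 had a probe and 50 were detected and tested. In SclRER/RER 1 rose and 4 fell, so 10% of the 50 were called, against 6.58% of all genes, 3.57% higher and 3.01% lower. The 1 rise, Gstt3, was detected on no WT array and was kept only through its SclRER/RER arrays, so the 10% is a description. With detection required on all 6 arrays, 4 of 49 genes passed, and 541 of 10127 probes. The median difference of the 50 was -0.02, against 0.02 for all genes. At an unadjusted limma p below 0.05 there were 14 of the 50 genes, each by its brightest kept probe. Over all 11578 kept probes, counted by probe and not by gene, there were 2268. Without the Nrf2 list, 1 rose and 3 fell among 39 tested, with a median of -0.01.

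Supply of cysteine and glutamate held 2 of the 4 falls. Of 11 genes 5 were tested, with 0 higher, 2 lower and 3 that did not pass, and a median of -0.77. Slc7a11, the cystine and glutamate exchanger that feeds cysteine to glutathione synthesis, read 7.27, 7.28 and 7.34 in SclRER/RER, against 8.22, 8.24 and 8.26 in WT. The groups did not overlap, and the difference was -0.94 (SE 0.10, limma adjusted p = 0.00123). The call was lost with median scaling (adjusted p = 0.0582), and the other 5 Slc7a11 probes were detected on no array.

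Slc1a5, a carrier of glutamine and other neutral amino acids, read 8.61, 9.85 and 9.70 in SclRER/RER, against 10.61, 10.56 and 10.78 in WT. Array 1 was well below the other SclRER/RER arrays, and all 3 were below WT. The difference was -1.26 (SE 0.29, limma adjusted p = 0.0374), and its 2 other kept probes also passed, at -1.29 and -1.27. Its call was lost without WT array 1, 2 or 3 (adjusted p of 0.0869, 0.126 and 0.139) and with no detection filter (0.185). Cth, which makes cysteine from cystathionine, differed by -0.77 (SE 0.29, adjusted p = 0.182), and without SclRER/RER array 1 by -1.15 (adjusted p = 0.00545). Cth passed under 2 of 16 alternatives, and without SclRER/RER array 2 it differed by -0.65 (limma adjusted p = 0.365). Ahcy differed by 0.24 and Slc1a4 by -0.07, neither past the threshold.

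The list of other transferases gave 1 rise and 1 fall among 11 tested of 26, with a median of 0.01. Of the 11, Eef1e1 and Vars are tied to tRNA charging and are not glutathione transferases. Without them the list held 9 tested genes, with the same rise and fall and a median of 0.33, a set chosen after the values were seen. Gstt3, a theta class gene, read 6.59, 6.63 and 6.74 in SclRER/RER, against 5.82, 5.69 and 5.92 in WT. It was detected on all 3 SclRER/RER arrays and on no WT array, so the level was at least 1.22-fold higher. Gstt3 thus entered the fit only through its SclRER/RER arrays and was not tested when detection on all 6 arrays was required, so this single rise is given as a description. The other Gstt3 probe, ILMN_1243868, was detected on no array. The fall was that of Gstp3. Mgst3, a microsomal member, differed by -0.23 and Gstm5, of the mu class, by 0.33, and neither passed. Gstk1, the mitochondrial kappa class gene, differed by 0.63 (SE 0.18, adjusted p = 0.0768), and without SclRER/RER array 1 by 0.78 (adjusted p = 0.0317). Gstk1 passed under that 1 of 16 alternatives only, and without SclRER/RER array 3 it differed by 0.50 (limma adjusted p = 0.139). Gsta3 and Gstk1 were named after their values were seen.

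Glutathione breakdown, selenoprotein synthesis, NADPH supply and glutathione-using enzymes had 0 called genes in the limma fit, among 3, 5, 6 and 9 tested. Medians were -0.15, -0.01, 0.07 and -0.09 in that order. In breakdown, Chac1, which cleaves glutathione in the cytosol, differed by -0.59 (SE 0.20, adjusted p = 0.131), and without SclRER/RER array 3 by -0.81 (adjusted p = 0.0128). Chac1 passed under 2 of 16 alternatives, and without SclRER/RER array 2 it differed by -0.40 (limma adjusted p = 0.295). Ggct, which releases 5-oxoproline, differed by -0.15. For the selenoproteins, to which Gpx1 and Gpx4 belong, Sephs2, which makes the selenium donor, differed by 0.10. In the pentose phosphate route that supplies NADPH, Tkt differed by 0.04 and Pgls by 0.10. No probe was named for G6pdx and that of Pgd was not kept, so the route was measured only in part. Glo1, which detoxifies methylglyoxal with glutathione, differed by 0.22 and Esd by -0.13. All 6 other glutathione peroxidases, Gpx2, Gpx3, Gpx5, Gpx6, Gpx7 and Gpx8, had a probe and 0 were kept, Gpx2 being detected on 1 WT array.

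Nrf2, the factor that binds antioxidant response elements, and genes known to respond to it were the last list. Of 14 genes 11 were tested, 0 rose and 1 fell, with a median of -0.03. The gene that fell was Nqo1, a quinone reductase, at 7.85, 8.12 and 8.39 in SclRER/RER, against 8.76, 8.69 and 8.71 in WT. The groups did not overlap, and the difference was -0.60 (SE 0.15, limma adjusted p = 0.0486). That call was lost under 8 of 16 alternatives, among them leaving out SclRER/RER array 1 or 2 or any WT array (adjusted p between 0.089 and 0.164). The ferritin chains Fth1 and Ftl1 differed by 0.05 and -0.17. Named after their values were seen, Hmox1, the haem oxygenase, differed by -0.73 (SE 0.28, adjusted p = 0.197), Srxn1, a sulfiredoxin, by -0.58 (SE 0.28, adjusted p = 0.298) and Bach1, a haem-regulated repressor of the same elements, by 0.55 (SE 0.15, adjusted p = 0.0619). Bach1 passed under 6 of 16 alternatives. Without SclRER/RER array 3, Srxn1 was at -0.93 (adjusted p = 0.00869) and Bach1 at 0.70 (adjusted p = 0.0103). Srxn1 passed under that 1 of 16 alternatives only, and without SclRER/RER array 2 it was at -0.35 (limma adjusted p = 0.572).

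**Figure D5:**
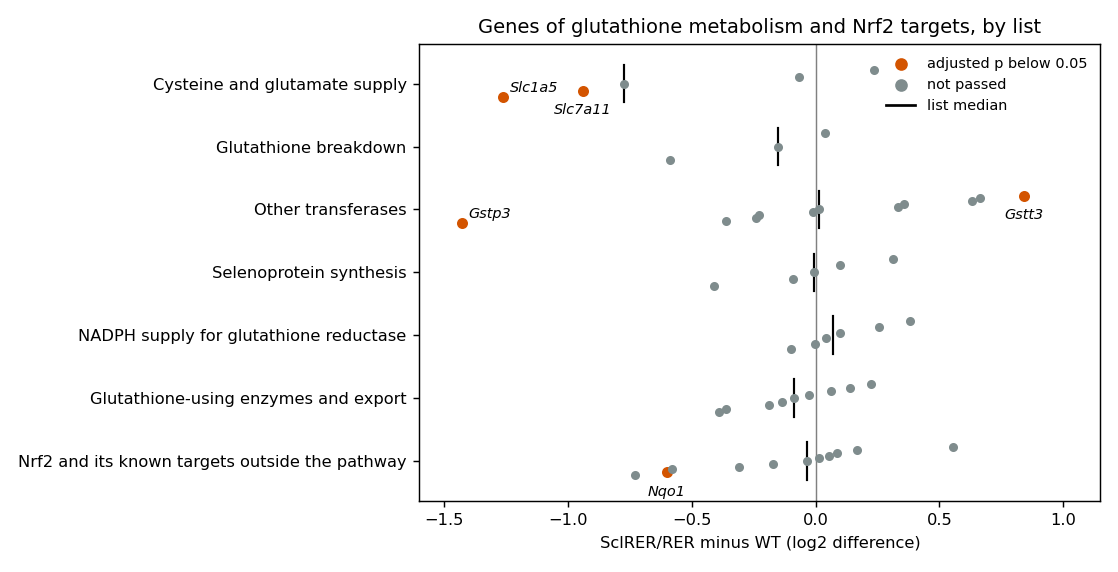
Difference between SclRER/RER and WT (log2, horizontal axis) for the 50 tested genes of glutathione metabolism outside the members and of the Nrf2 list, by list, with the median of each list as a vertical line. Orange points are the 5 genes past an adjusted p of 0.05, Slc1a5, Slc7a11, Gstp3 and Nqo1 to the left of 0 and Gstt3 to the right.

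Markers of the labelled cell type were present. Among other cell types, neutrophils had 8 of 9 markers detected and megakaryocytes 4 of 8, and the remaining types had fewer. Detected erythroid markers numbered 8, Klf1, Gata1, Tfrc and Kit among them. In SclRER/RER 2 of the 8 fell, Slc4a1 (band 3), at -2.35 (SE 0.29), and Epor, at -0.54 (SE 0.11). The 6 that did not pass lay between -0.57 and 0.33, and the median of the 8 was -0.39. Summed levels were 53485 to 58925 in SclRER/RER and 58439 to 65769 in WT. Hba-a1, which differed by 0.09 (SE 0.12), weighed most in these sums, so they say little of the other markers. Of 9 hepatocyte markers 1 was detected, Apoa1, at 473 to 864 in SclRER/RER and 961 to 1004 in WT on the linear normalized scale, while Alb, Afp, Ttr and 5 more were not above background. Of 8 megakaryocyte markers 4 were detected and all 4 fell, with summed levels of 571 to 796 in SclRER/RER and 1468 to 1821 in WT, and Itga2b, Gp9 and Gp1bb were at background. Of 9 neutrophil markers 8 were detected and 3 fell, with sums of 4229 to 9952 in SclRER/RER and 6772 to 7547 in WT. Of 8 mast cell and basophil markers 3 were detected, 1 higher and 1 lower. Cpa3 was higher (1.07, SE 0.19), Fcer1g lower (-2.51, SE 0.44) and Hdc, at 0.28 (SE 0.12), did not pass. Cpa3 was detected on 1 WT array and Fcer1g on 1 SclRER/RER array. The sums were 879 to 1000.3 in SclRER/RER and 860.4 to 932 in WT, and Hdc weighed most in them. Tpsb2, Mcpt8, Prss34, Fcer1a and Ms4a2 were at background. Macrophages had 1 detected marker of 8 (Lyz2, 370.3 to 664 in SclRER/RER and 386 to 447 in WT), endothelial and stromal cells 2 of 8 (sums of 2414 to 3264 in SclRER/RER and 3549 to 4151 in WT) and lymphoid cells 0 of 7. The part of these cells in the differences of Gsta4, Gstp3 and Slc7a11 was not tested.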

How the data were processed

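RNA from 3 SclRER/RER and 3 WT samples was measured, 1 bead array each. The deposited non-normalized table holds a linear signal intensity per probe and array, per the file headers, with no background subtraction, and a second table holds the authors' quantile-normalized intensity values, per the values, used as an alternative. The deposited column headed as a detection p-value rose with the signal, so it was read as a fraction equal to 1 minus that p. On WT array 3 it fell at 7.05% of steps in signal order, against 0 elsewhere, and the scores of that array were replaced, rank for rank in signal, by the average of WT arrays 1 and 2. The submitters' processing notes name limma, and no other tool.

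In R 4.3.3 with limma 3.58.1, signals were background corrected (nec, detection p), given an offset of 16, quantile normalized and converted to log2. Probes with detection p below 0.01 on at least 3 arrays were fitted by genotype alone (lmFit, eBayes), with two-sided moderated tests adjusted by Benjamini-Hochberg over all 11578 kept probes and a threshold of 0.05. Outside the members a gene was represented by its brightest kept probe. All probes of members are given. Related genes past the threshold are named, with up to 3 of the brightest others per list. Of 46632 probes, 29976 had 1 symbol in the platform annotation, 10 several and 16646 none, and 29921 matched an identifier in a GRCm38.p6 table. The build of the array design was not given, so array genes are placed only by order. Members and lists were chosen with earlier results of these data known. The fit was tested on simulated data with normal noise. It recovered 23.88% of the changed probes at a true log2 difference of 0.5, 79.1% at 1 and 95.45% at 2. A probe that did not pass may therefore still differ. Alternatives changed the background correction, offset, scaling, detection filter and scores, variance model, array weights, replicate block, probe choice per gene and the arrays included. The number of arrays limits the precision. No batch is given in labels or headers.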

Additional observations from a re-analysis of the deposited data

How the results depend on the processing

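The Gsta4 call held under all 16 alternatives, and the count of 1 member probe past the threshold did not move under any. With median scaling in place of quantile normalization, 398 probes passed against 762, and 3 related genes against 5. With array weights these counts were 1209 and 9. Leaving out 1 array at a time gave 301 to 986 probes and 3 to 9 related genes, the lowest without WT array 2 (301 and 3) or WT array 3 (343 and 3), and 485 probes without SclRER/RER array 2. The 9 came without SclRER/RER array 3. The cause was not tested. With median scaling the split was 219 higher and 179 lower, against 385 and 377. Among the members, small differences turned sign with median scaling (given beside each) and, with 1 array left out, for Gpx1 (-0.11 to 0.016) and the Gstp1 probes ILMN_1226037 (-0.014 to 0.11) and ILMN_1223230 (-0.099 to 0.0084). Among the related genes named, those that turned sign were Esd (0.0087 with median scaling), Slc1a4 (0.047 with median scaling, -0.23 to 0.074 with arrays left out), Ggct (-0.41 to 0.019 with arrays left out) and Sephs2 (-0.027 to 0.17 with arrays left out). Whether replicate numbers pair the samples was not settled. Deviations of arrays with the same number correlated at 0.16, -0.03 and 0.07, and those with different numbers at -0.23 to 0.18. Not every array correlated best with its own number. Deviations from a mean of 3 arrays depend on each other, so these values cannot decide it. With the replicate number as a block 726 probes, 1 member probe and 5 related genes passed, Nqo1 dropping out (adjusted p = 0.0698) and Hmox1 coming in (adjusted p = 0.0294). In alternatives chosen after seeing the data, 4 related genes passed without the Nrf2 list and 5 without Eef1e1 and Vars. Signal over background limits Gclc and Gstm1, which were at background, and the precision of every difference rests on 3 arrays a genotype.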
